A study of Penicillium oxalicum with 18 samples.

Results

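Deletion of hap5 was compared with wild type in glucose-grown mycelium of the filamentous fungus Penicillium oxalicum, in 6 transcriptome libraries out of 18 in the series. Of these, 3 came from a hap5 deletion strain, written Δhap5, and 3 from wild type strain 114-2, written WT. They were taken by strain, medium and replicate number from the columns of the deposited expression table. In every group, mycelium was precultured for 24 h at 30 °C on 2% glucose and then moved for 24 h to the test medium, which held 2% glucose for these 6 libraries. The 12 other libraries, 3 a group, serve as reference. They came from a hap3 deletion strain, Δhap3, on glucose and from all 3 strains on 1% bran with 1% microcrystalline cellulose, called bran-cellulose below. No allele other than the named deletion is given in the labels. The labels do not say how many transformants of the deletion were used or whether replicates were separate cultures, so p-values cover only library-to-library spread, possibly technical.

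Hap5 is a subunit of the CCAAT-binding Hap complex. In Saccharomyces cerevisiae and in Aspergillus species this complex forms from Hap2, Hap3 and Hap5 or their counterparts, and DNA binding needs every one of these subunits. With further partner proteins the complex acts on respiratory genes in yeast and on iron-dependent metabolism in Aspergillus, and in filamentous fungi it also binds promoters of genes for plant cell wall degradation and secondary metabolism. Glucose is a preferred carbon source, on which genes for degradation of polymers are largely repressed in such fungi.

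Levels are in FPKM (fragments mapped to a gene, divided by its length in kilobases and by the mapped total), given for 9277 identifiers. Of these, 9241 are PDE locus tags and 36 are XLOC identifiers, and the table names none of them, so roles of single genes are not given. The protocol describes tags cut next to CATG sites, for which division by gene length is unusual. Wherever levels of different genes are ranked, grouped or summed below, this is done in the deposited unit and carries that limit. Totals of the 6 libraries lay between 1009769 and 1130190 FPKM, and sequencing depth is unknown. Correlations across genes of log2(FPKM + 1) lay between 0.9761 and 0.9823 within Δhap5, between 0.9838 and 0.9875 within WT and between 0.8873 and 0.8945 between the groups. Genes are not independent replicates, so no p is attached.

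PDE_01016, singled out here after its values were seen, was low in the deletion strain. It stood at 135.89, 123.22 and 141.37 FPKM in the 3 WT libraries and at 1.49, 1.95 and 2.14 FPKM in the 3 Δhap5 libraries. It was the only identifier at least 4 times lower in all 6 Δhap5 libraries of the series than in each of the 12 others, when these had to reach 2 FPKM. In Δhap3 on glucose it was at 182.18, 226.15 and 175.29 FPKM. Its log2 change against WT was -5.56 (SE 0.12, adjusted p = 3.03e-14) on glucose. The files do not name the deleted gene, so PDE_01016 is a tag low in all libraries labelled as Δhap5 and no more is read from it.

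On glucose many genes had another level in Δhap5 than in WT, and more were higher than lower. Of 8681 tested genes, those with at least 1 FPKM in at least 3 of the 18 libraries, 1530 (17.6%) were higher and 608 (7.00%) lower. A call needed an adjusted p under 0.05 in limma and a log2 change of at least 1 on the log2(FPKM + 1) scale. The change was at least 2 in log2 units for 540 higher and 254 lower genes, at least 3 for 208 and 120, and at least 5 for 37 and 27. The 95% interval of the change lay wholly at or beyond 1 for 1013 higher and 400 lower genes. It lay wholly inside 1 in either direction for 5047 genes, 58.1% of those tested. Values of the groups did not overlap for 1509 of the higher and 600 of the lower genes, where 47.6% of all tested genes were higher and 21.2% lower without overlap.

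Genes higher in Δhap5 had a lower median level in WT than genes lower in Δhap5. The median WT level was 5.65 FPKM for the higher genes and 70.2 FPKM for the lower genes, and the same genes had medians of 26.8 and 13.6 FPKM in Δhap5. Together the higher genes held 4.09%, 4.01% and 4.61% of the FPKM total in the WT libraries and 17.7%, 16.7% and 17.4% in the Δhap5 libraries. The lower genes held 23.9%, 23.3% and 24.8% of the WT totals and 6.40%, 6.93% and 6.70% of the deletion totals. These values use the libraries that chose the genes and are a description without a test.

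**Figure D1:**
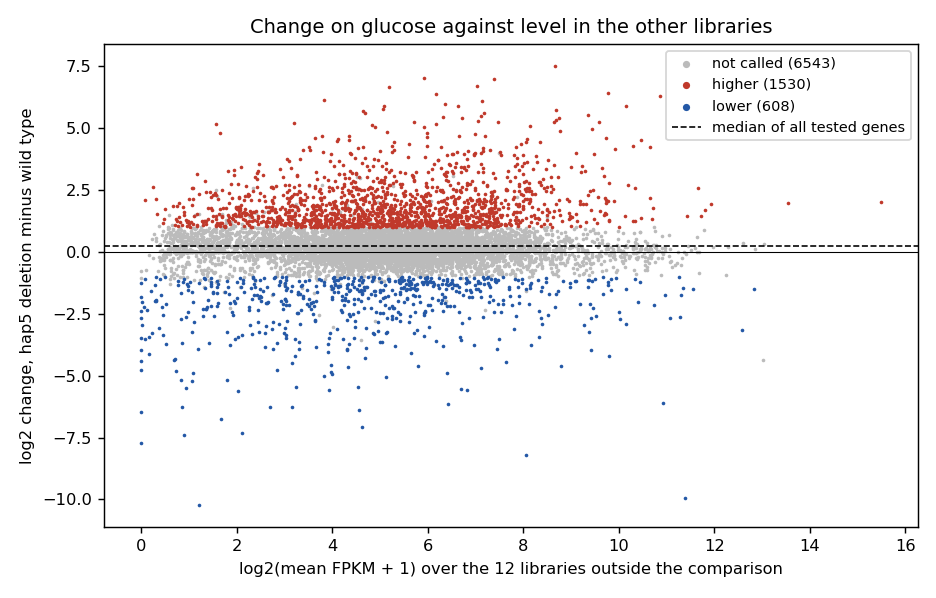
Log2 change on glucose (vertical, Δhap5 minus WT) of 8681 tested genes against their mean level in the 12 libraries outside the comparison (horizontal, log2 scale). Red points are the 1530 higher genes, blue the 608 lower genes, grey the others, and the dashed line is the median of all tested genes at 0.24.

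The balance of higher and lower genes depended on how libraries were scaled to each other. The median log2 change of all tested genes was 0.236 as deposited, 0.014 with median-of-ratios scaling and -0.023 with quantile normalization. Higher genes made up 71.6% of the calls as deposited, 60.7% (1216 higher, 786 lower) after the first and 54.2% (958 higher, 809 lower) after the second. Under all 3 scalings 934 of the 1530 higher genes (61.1%) and 591 of the 608 lower genes (97.2%) were called in the same direction. Each of the 26 genes named with library values kept its call and direction under each of these scalings. They were chosen among called genes with groups apart in these same libraries, which favours this, so it says nothing of other calls.

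In the deposited values the FPKM total of the deletion was spread over more genes. At 1 FPKM or more there were 8042, 8087 and 8112 genes in the Δhap5 libraries and 7673, 7648 and 7737 in WT, a difference of 394 genes. The 50 most abundant genes of each library held 19.1%, 20.02% and 19.7% of the total in Δhap5 and 25.6%, 25.3% and 24.5% in WT. No Δhap5 library overlapped a WT library in either measure. The exact two-sided permutation test gave p = 0.1 for each, the smallest that 3 against 3 libraries allow. A count at a fixed FPKM depends on scaling and was not taken again after rescaling. In Δhap3 on glucose 7997, 7899 and 7996 genes were at 1 FPKM or more. The 50 most abundant genes held 21.35%, 24.29% and 21.08% of the total there.

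**Figure D2:**
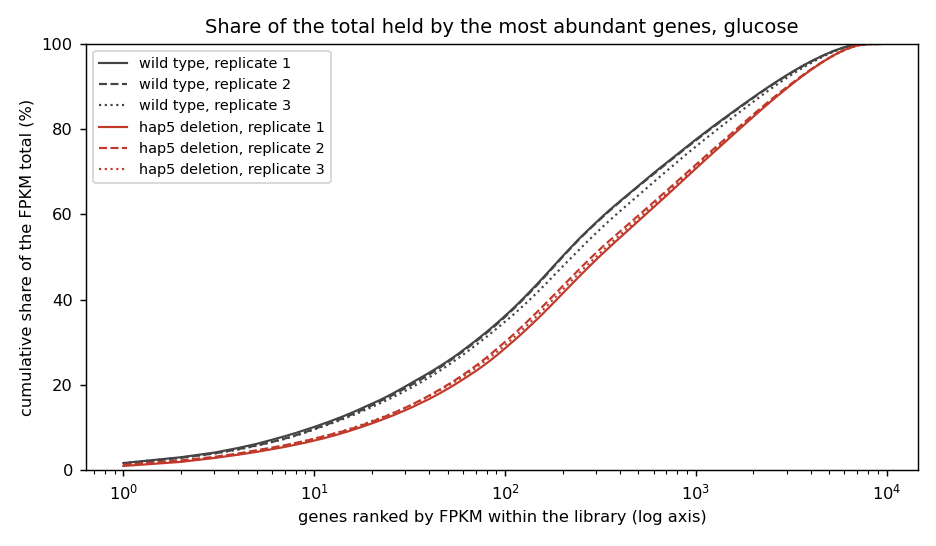
Cumulative share of the FPKM total (vertical, %) held by genes ranked from the most abundant (horizontal, log axis) in each of the 6 glucose libraries. WT curves (black) lie above Δhap5 curves (red), with 24.5% to 25.6% against 19.1% to 20.02% of the total in the first 50 genes.

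Several of the most abundant WT transcripts fell. Of the 50 genes with the highest mean in WT, 17 were lower and 0 higher in Δhap5, and 32 were also among the 50 highest in Δhap5. Of the 50 highest in Δhap5, 9 were higher and 5 lower. Over all tested genes 17.6% were higher and 7.00% lower. These 2 lists were set by the compared libraries, so nothing is read from their counts.

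PDE_08540 and PDE_01194 showed the largest falls in FPKM. PDE_08540 was at 18643.68, 15860.84 and 13845.99 FPKM in WT and at 170.92, 358.83 and 195.52 FPKM in Δhap5. It was the highest transcript of WT replicates 1 and 2. Its share of the total went from 1.45% ± 0.196 to 0.0234% ± 0.00958 (SD, n = 3). The log2 change was -6.12 (SE 0.33, adjusted p = 4.4e-10). PDE_01194, the highest transcript of WT replicate 3, was at 15453.18, 15708.41 and 18344.01 FPKM in WT and at 6433.66, 5613.04 and 5618.77 FPKM in Δhap5. Its share of the total went from 1.49% ± 0.158 to 0.571% ± 0.0439. The log2 change was -1.49 (SE 0.11, adjusted p = 1.08e-08).

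PDE_03870 and PDE_02650 showed the largest gains in abundance. PDE_03870 was at 2602.23, 2106.08 and 2598.37 FPKM in WT and at 7912.56, 7890.24 and 8017.78 FPKM in Δhap5 (log2 change 1.71, SE 0.26, adjusted p = 3.34e-05). PDE_02650 was at 1843.65, 1574.14 and 1565.97 FPKM in WT and at 6851.98, 5832.28 and 6142.16 FPKM in Δhap5 (log2 change 1.92, SE 0.13, adjusted p = 7e-09). Both were already abundant in WT, and a ranking by difference in FPKM favours such genes. No library of one group reached the range of the other, which was a condition for naming.

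Among the largest test statistics were those of genes listed at 0 in 1 group and at a narrow range of levels in the other. PDE_00476 was listed at 0 in all 3 WT libraries and was at 106.35, 94.32 and 101.79 FPKM in Δhap5 (adjusted p = 3.58e-16). PDE_06665 was listed at 0 in WT and was at 150.93, 101.62 and 134.99 FPKM in Δhap5 (adjusted p = 6.32e-16). PDE_02380 went the other way, from 217.98, 212.64 and 198.64 FPKM in WT to 0 in every Δhap5 library (adjusted p = 1.28e-16). These p-values lean on a spread shared by 18 libraries, many of them at exactly 0 for these genes. With the compared groups alone the adjusted p in limma was 2.97e-06 for PDE_00476, 1.22e-05 for PDE_06665 and 2.46e-06 for PDE_02380. A listed 0 can be a failed estimate, so no fold is given for these genes. PDE_00897 fell between groups that were both above 0, from 538.72, 522.30 and 525.97 FPKM to 20.61, 21.65 and 19.51 FPKM (log2 change -4.62, SE 0.08, adjusted p = 1.58e-15, or 2.97e-06 with the compared groups alone).

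Changes between a listed 0 and 10 FPKM or more were found in both directions. Of all 9277 identifiers, 27 were listed at 0 in the 3 WT libraries and at 10 FPKM or more in each Δhap5 library, and 11 showed the reverse. The highest of the 27 were PDE_06665 and PDE_02096, the latter at 122.00, 87.09 and 106.71 FPKM in Δhap5. The highest of the 11 were PDE_02380 and PDE_00046, the latter at 116.83, 77.72 and 76.34 FPKM in WT and 0 in Δhap5.

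With the off state widened to under 1 FPKM, 47 genes were off in all WT libraries and at 10 FPKM or more in all Δhap5 libraries, and 16 showed the reverse. Of the 47, 19 were at 10 FPKM or more in every WT library on bran-cellulose, 16 were under 1 FPKM in every one of these, and the remaining genes lay between. Of the 16, 9 were under 1 FPKM in all WT libraries on bran-cellulose and 5 were at 10 FPKM or more there. Part of the genes switched on were thus transcripts that WT showed on the other medium, and part were under 1 FPKM on both media in WT. Of all 9277 identifiers, 6626, 6643 and 6624 were at 10 FPKM or more in the WT libraries on bran-cellulose. At 1 FPKM or more there were 7970, 7966 and 7951. Most identifiers thus reached 10 FPKM there, so 19 of 47 and 5 of 16 are not read as frequent. No share was taken over genes equally low in WT on glucose, so these counts are a description.

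**Figure D3:**
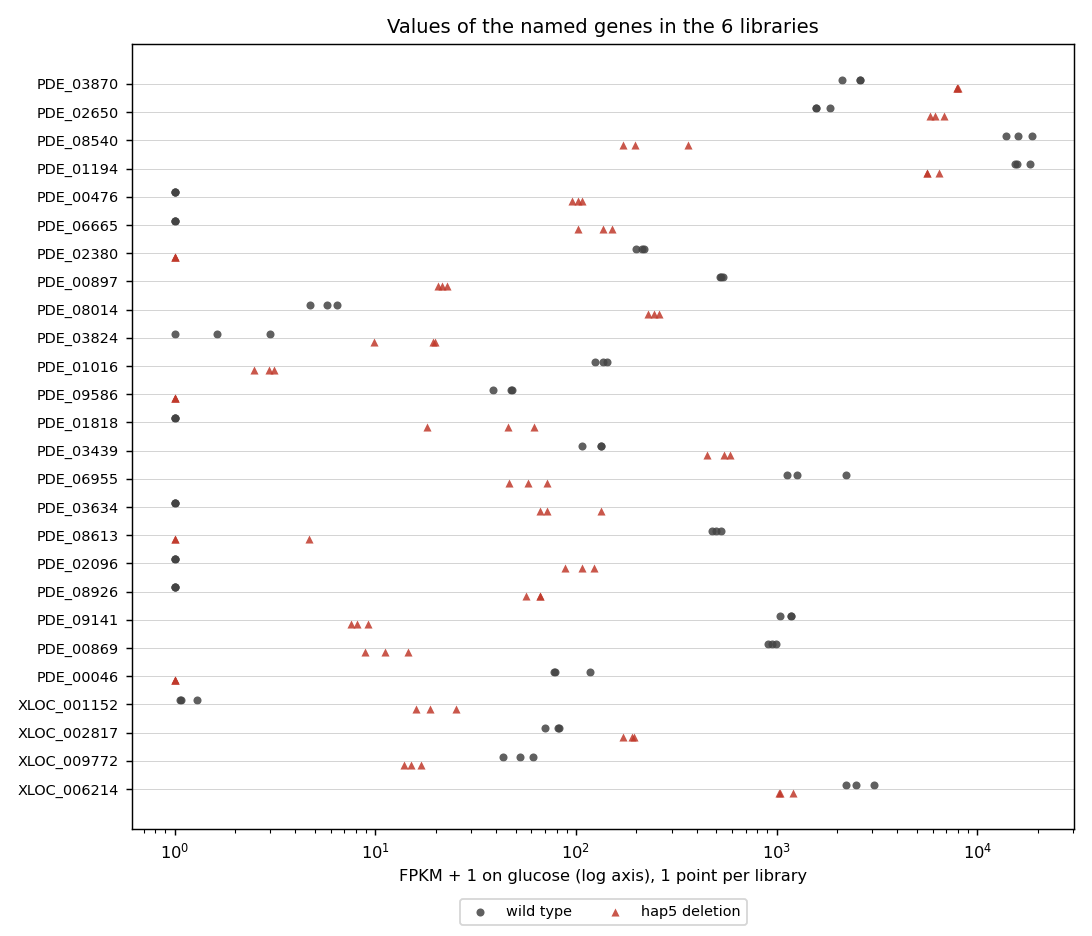
FPKM + 1 on glucose (horizontal, log axis) of the 26 named genes in each of 3 WT libraries (black circles) and 3 Δhap5 libraries (red triangles). No gene has overlapping groups, which was a condition for naming, and points at the left edge, at 1, are genes listed at 0.

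Growth on bran-cellulose gave a comparison of the same deletion in 6 libraries that share none with the glucose comparison. There 1421 genes (16.4%) were higher and 1150 (13.2%) lower than in WT on that medium. Of the 1530 genes higher on glucose, 675 (44.1%) were also higher on bran-cellulose, where 16.4% of all tested genes were, and 161 (10.5%) were lower. Of the 608 genes lower on glucose, 275 (45.2%) were also lower on bran-cellulose, where 13.2% of all tested genes were, and 57 (9.38%) were higher. Taken from the other list, the 675 genes made up 47.5% of those higher on bran-cellulose, and the 275 made up 23.9% of those lower there. With the first and the second of those scalings the same-direction shares were 48.6% and 50.3% for higher genes and 42.9% and 45.9% for lower genes. Over all tested genes the shares called in that direction on bran-cellulose were then 16.2% and 15.3% for higher and 13.4% and 14.4% for lower. Across genes the log2 changes on the 2 media correlated at r = 0.365 (8681 genes).

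Of the genes open to naming by the rule in the methods, 493 rose and 236 fell on both media. PDE_06665 was also listed at 0 in WT on bran-cellulose, and reached 239.77, 237.57 and 234.03 FPKM in Δhap5 there. PDE_03634 was listed at 0 in all 6 WT libraries, was at 132.31, 70.90 and 64.83 FPKM in Δhap5 on glucose, and was at 2081.02, 1922.27 and 2560.11 FPKM in Δhap5 on bran-cellulose. Deletion libraries of PDE_03634 on bran-cellulose were all above those on glucose. PDE_08613 fell from 524.62, 474.02 and 497.74 FPKM to 0, 3.66 and 0 FPKM on glucose, and from 1092.85, 1066.74 and 982.19 FPKM to 10.67, 4.79 and 5.19 FPKM on bran-cellulose. For PDE_01016, described above as the tag low in this strain, the changes were -5.56 on glucose and -5.57 on bran-cellulose.

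An interaction test asked where the deletion effect differed between the media, as the change on bran-cellulose minus that on glucose. It was positive for 948 genes (10.9%) and negative for 1681 (19.4%). Among genes higher on glucose it was negative for 699 and positive for 110, and among genes lower on glucose it was positive for 283 and negative for 88. These counts reuse the glucose libraries by which the genes were chosen, which favours a smaller change on the other medium.

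Of the genes open to naming, 109 were higher on glucose and lower on bran-cellulose, and 53 were lower on glucose and higher on bran-cellulose. Of all genes higher on glucose 10.5% were lower on bran-cellulose, against 13.2% of all tested genes. Of all genes lower on glucose 9.38% were higher there, against 16.4% of all tested genes. Opposite calls were thus no more frequent than over all tested genes. PDE_03439 rose from 131.70, 106.06 and 132.33 FPKM to 584.18, 451.06 and 548.02 FPKM on glucose (log2 change 2.09, SE 0.19, adjusted p = 1.25e-07). On bran-cellulose it was at 90.27, 91.12 and 105.39 FPKM in WT and listed at 0 in all Δhap5 libraries. PDE_01818 was listed at 0 in WT on glucose and at 60.94, 17.00 and 44.74 FPKM in Δhap5 (adjusted p = 0.000149). Its WT libraries on bran-cellulose held 12.96, 14.43 and 10.74 FPKM and the Δhap5 libraries 0, 0 and 0.39 FPKM. Deletion and WT values were thus in opposite order on the media.

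PDE_06955 and PDE_09586 showed the reverse pattern. PDE_06955 fell from 1262.38, 1120.72 and 2221.84 FPKM to 70.50, 45.44 and 56.36 FPKM on glucose (log2 change -4.67, SE 0.19, adjusted p = 2.52e-11). On bran-cellulose it was at 0.22, 0.31 and 0.23 FPKM in WT and at 259.44, 269.48 and 260.92 FPKM in Δhap5. PDE_09586 was at 47.07, 46.44 and 37.61 FPKM in WT on glucose and at 0 in Δhap5 (adjusted p = 1.53e-08). On bran-cellulose it was at 0 in WT and at 7.90, 6.54 and 8.22 FPKM in Δhap5.

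Other genes changed on glucose and had close means in both strains on bran-cellulose. This list, with a log2 change under 0.5 in either direction and at least 10 FPKM in both groups on bran-cellulose, held 235 higher and 84 lower genes of those open to naming. No share was taken over all tested genes for this condition, so these counts are a description. Not called on bran-cellulose were 694 of the 1530 higher and 276 of the 608 lower genes, against 6110 of all 8681. PDE_09141 fell from 1176.18, 1040.28 and 1175.27 FPKM to 7.08, 6.59 and 8.25 FPKM on glucose (log2 change -7.09, SE 0.12, adjusted p = 1.58e-15). On bran-cellulose its mean was 36.26 ± 6.079 FPKM in WT and 31.83 ± 0.6504 FPKM in Δhap5 (SD, n = 3). The log2 change there was -0.17 (SE 0.12). PDE_00869 had 993.14, 949.67 and 899.64 FPKM in WT and 13.56, 7.89 and 10.15 FPKM in Δhap5 on glucose (log2 change -6.39, SE 0.23, adjusted p = 6.69e-12). Its means on bran-cellulose were 26.37 ± 5.944 and 28.96 ± 1.571 FPKM.

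PDE_02096 and PDE_08926 were listed at 0 in WT on glucose. PDE_02096 had the deletion values on glucose given above (adjusted p = 2.11e-10), and on bran-cellulose it was at 132.9 ± 17.08 FPKM in WT and 141.4 ± 43.36 FPKM in Δhap5. PDE_08926 was at 64.96, 55.32 and 65.52 FPKM in Δhap5 on glucose (adjusted p = 2.73e-09), and at 75.12 ± 4.35 and 104.4 ± 9.144 FPKM in WT and deletion on bran-cellulose. Both genes were chosen for groups apart on glucose, a large change there and little change on bran-cellulose. Their passing of the interaction test followed from that choice and is not read as a result.

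**Figure D4:**
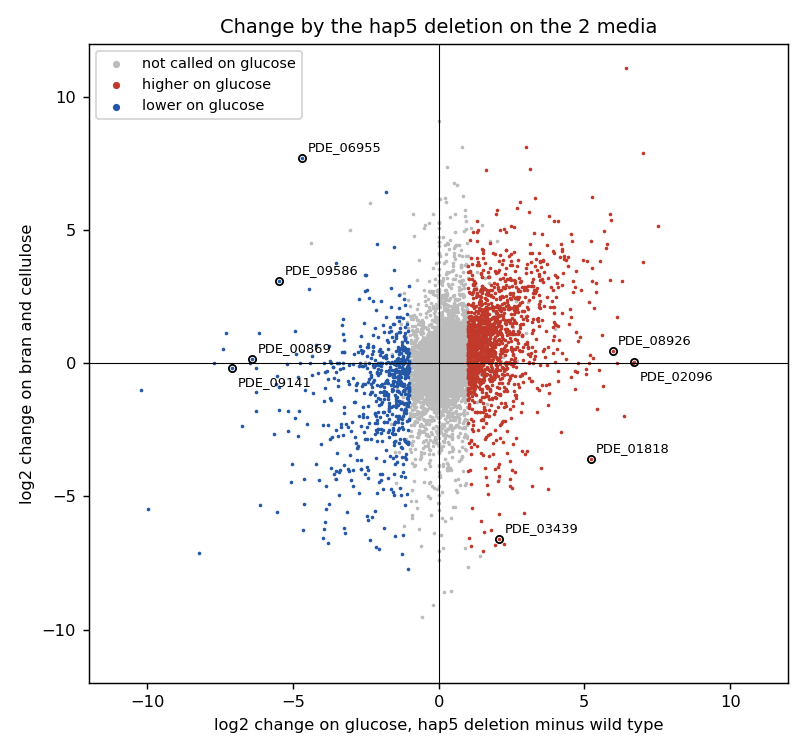
Log2 change by Δhap5 on glucose (horizontal) and on bran-cellulose (vertical) for 8681 tested genes, coloured by their call on glucose. Circles mark the named genes with opposite calls on the 2 media, such as PDE_06955 at -4.67 and 7.72, and those near 0 on bran-cellulose.

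The strain Δhap3, which lacks another subunit, was compared on the same medium. Its comparison uses the same WT libraries, so the overlap of the calls is not given as a result. Against WT it had 1329 higher genes (15.3%) and 759 lower genes (8.74%). The direct test of Δhap5 against Δhap3 on glucose called 258 genes higher (2.97%) and 90 lower (1.04%) in Δhap5. With the spread estimated from these 6 libraries alone, it called 90 higher and 45 lower. Across genes, Δhap5 and Δhap3 libraries on glucose correlated at 0.9405 to 0.9716, and Δhap5 and WT libraries at 0.8873 to 0.8945. PDE_02380 and PDE_00046 were listed at 0 in every Δhap3 library on glucose too. PDE_00476 and PDE_06665 were at means of 141.1 and 165.2 FPKM there. The genes described next were chosen with the same Δhap5 libraries that enter this test, so their difference from Δhap3 is a description.

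PDE_08014 had the largest log2 difference between the deletions among genes open to naming that rose. It was at 4.74, 3.72 and 5.48 FPKM in WT, at 243.25, 228.57 and 258.38 FPKM in Δhap5 and at 10.77, 21.89 and 8.65 FPKM in Δhap3. Its log2 change against WT was 5.45 (SE 0.30, adjusted p = 6.5e-10), and that against Δhap3 was 4.15 (SE 0.30, adjusted p = 7.02e-07). On bran-cellulose it was lower in Δhap5 than in WT, at 58.23 ± 20.47 against 189.9 ± 42.88 FPKM. PDE_03824 was at 18.49, 8.81 and 18.93 FPKM in Δhap5, at 2.00, 0 and 0.62 FPKM in WT and at 0 in Δhap3 (adjusted p = 2.71e-06 against WT and 6.98e-06 against Δhap3).

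PDE_01016 and PDE_09586 led the genes that fell and were also lower than in Δhap3. PDE_09586, at 0 in Δhap5, was at 12.41, 40.76 and 11.74 FPKM in Δhap3, with 1 library inside the WT range and 2 below it. The abundant PDE_08540 was at 71.30, 120.25 and 138.25 FPKM in Δhap3, all below Δhap5, a log2 difference of 1.11 (SE 0.33, adjusted p = 0.0293). PDE_01194 was at 4137.22, 4582.12 and 4406.58 FPKM there, a difference of 0.43 (SE 0.11) that is under the minimum of 1. For PDE_02650 the difference between the deletions was -0.06 in log2 units (SE 0.13), on means of 6275 ± 522.8 FPKM without hap5 and 6556 ± 691.4 FPKM without hap3.

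Called genes often stood next to each other in tag number. Shares were taken over tested PDE genes that had a tested gene at the next or previous tag number. Such a neighbour was called higher for 46.0% of the higher genes and for 28.0% of all these genes. For lower genes the shares were 25.5% and 11.6%. After quantile normalization they were 35.7% and 18.2% for higher genes and 29.1% and 15.1% for lower genes. Runs were defined as at least 5 called genes with at most 1 tested gene without that call between them. As deposited there were 41 of higher genes, holding 281 genes, and 2 of lower genes, holding 10. Runs form more easily where more genes are called, here 17.6% higher against 7.00% lower, so 41 and 2 are not compared. They were not counted again after rescaling. The tags' positions in the genome were not used here, and reads of overlapping neighbours cannot be told apart in this table.

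The longest run reached from PDE_00789 to PDE_00813, and all its 24 tested genes were higher. Their median level was 1.59, 1.75 and 3.01 FPKM in the WT libraries and 30.7, 119 and 67.4 FPKM in the Δhap5 libraries. The Δhap5 libraries thus lay far above WT but also far apart, with replicate 2 the highest. In Δhap3 the median was 13.6, 21.1 and 18.7 FPKM. Of the 24 genes 16 were higher in Δhap5 than in Δhap3, against 2.97% of all tested genes. Run genes were chosen as high in the same Δhap5 libraries, which favours a level above Δhap3. All 24 were also higher in Δhap5 on bran-cellulose, where 16.4% of all tested genes were.

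A run of 12 genes from PDE_09999 to PDE_10010 had the same pattern. Its median was 0.915, 0.915 and 1.14 FPKM in WT and 8.51, 33.9 and 16.9 FPKM in Δhap5, again with replicate 2 the highest and replicate 1 the lowest. All 12 genes were also higher on bran-cellulose, and 8 were higher in Δhap5 than in Δhap3 on glucose. Over all tested genes these shares were 16.4% and 2.97%.

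The second longest run, from PDE_09226 to PDE_09244, behaved otherwise. Its 15 called genes of 19 tested had a median of 0.71, 0.67 and 1.03 FPKM in WT and 5.57, 11.5 and 8.38 FPKM in Δhap5. In Δhap3 the median was 158, 246 and 95.4 FPKM. Of the 15 genes 14 were lower in Δhap5 than in Δhap3, against 1.04% of all tested genes. On bran-cellulose 12 of the 15 were lower in Δhap5 than in WT, against 13.2% of all tested genes. The next longest run, from PDE_04020 to PDE_04034 and chosen here after its values were seen, also changed direction with the medium. Its 11 called genes had a median of 2.50, 2.48 and 3.76 FPKM in WT and 10.8, 9.43 and 11.2 FPKM in Δhap5 on glucose. On bran-cellulose the median was 114, 184 and 251 FPKM in WT and 3.15, 2.90 and 2.97 FPKM in Δhap5. There 9 of the 11 genes were lower, against 13.2% of all tested genes. The choice of this run after its values were seen favours such a share, so it is not read as a result. Genes of 1 run are not independent, so the shares given for runs are a description.

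Both runs of lower genes held 5 called genes. From PDE_01235 to PDE_01239 the median was 102, 106 and 49.9 FPKM in WT and 3.65, 2.24 and 3.54 FPKM in Δhap5. Among 7 tested genes from PDE_01471 to PDE_01482 the 5 called ones had a median of 239, 204 and 194 FPKM in WT and 13.0, 26.2 and 18.2 FPKM in Δhap5. On bran-cellulose 2 genes of the first run and 1 of the second were called lower, against 13.2% of all tested genes. Medians there for the first run were 6.17, 5.29 and 6.81 FPKM in WT and 3.42, 3.11 and 2.77 FPKM in Δhap5. For the second they were 1.40, 1.66 and 1.37 FPKM in WT and 0.21, 0.19 and 1.56 FPKM in Δhap5. Such WT levels leave less room for a fall than on glucose on the log2(FPKM + 1) scale. Whether this set the number of calls was not tested.

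**Figure D5:**
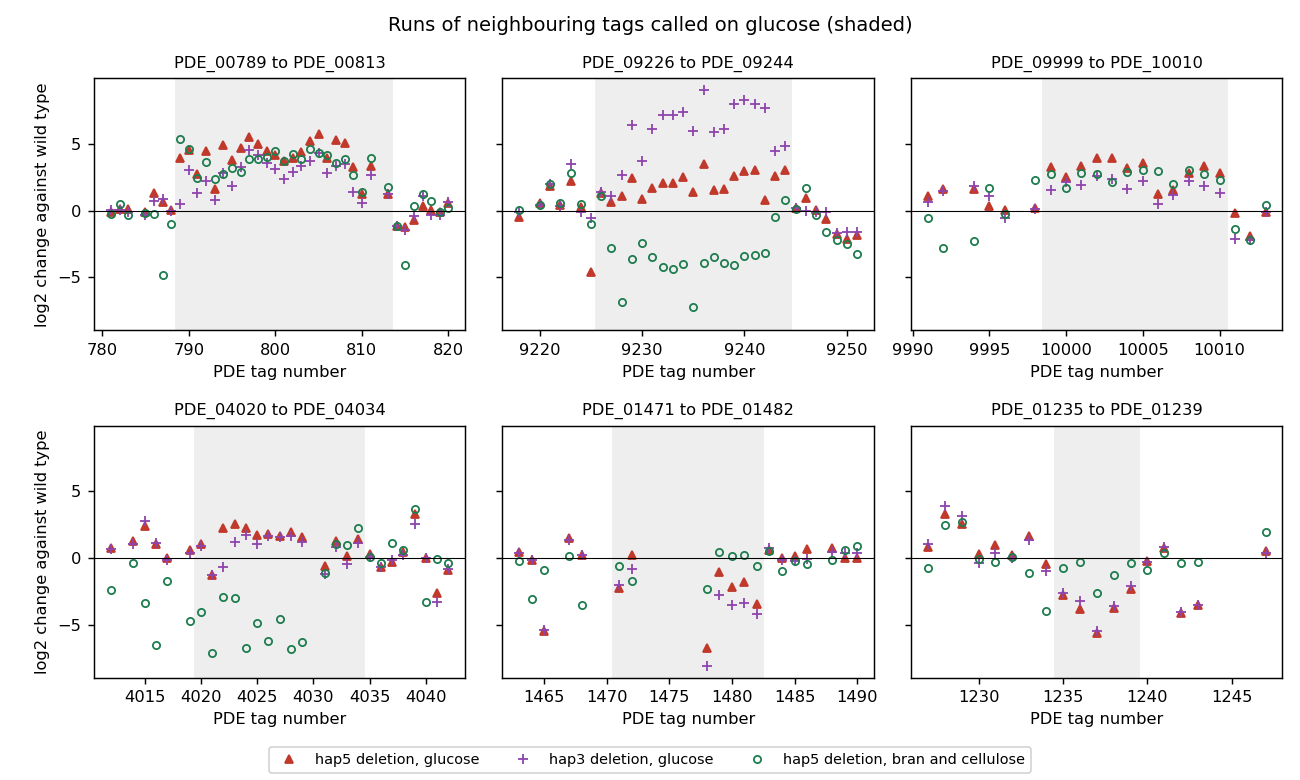
Log2 change against WT (vertical) by PDE tag number (horizontal) in and around 6 runs of called genes (shaded), for Δhap5 on glucose (red triangles), Δhap3 on glucose (purple crosses) and Δhap5 on bran-cellulose (green circles). In the runs from PDE_09226 and PDE_04020 the green circles lie mostly below 0 and the red triangles mostly above.

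Change was set against the level of each gene in the 12 libraries outside the comparison. The class under 1 FPKM is not read, since such genes passed the filter largely through libraries of the compared groups in which they were high. In the classes from 1 to 10, 10 to 100 and 100 to 1000 FPKM, 19.97%, 15.8% and 23.2% were higher and 10.2%, 5.32% and 7.04% lower. Of 169 genes at 1000 FPKM and over, 22 (13.0%) were higher and 19 (11.2%) lower, with a median log2 change of 0.03.

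Carbon source response was taken from strain Δhap3, which shares no library with the comparison. Of 1617 genes higher on bran-cellulose than on glucose in that strain, 547 (33.8%) were higher and 112 (6.93%) lower in Δhap5 on glucose. Of 1177 genes lower on bran-cellulose in that strain, 262 (22.3%) were higher and 168 (14.3%) lower. Of the other 5887 genes 12.2% were higher and 5.57% lower. The median log2 changes of the 3 classes were 0.56, 0.13 and 0.19, beside 0.24 for all tested genes. Glucose libraries of Δhap3 correlated at 0.9405 to 0.9716 with those of Δhap5 and at 0.8642 to 0.8953 with those of WT. The classes are thus those of a mutant close to Δhap5 on glucose. They are not independent of the deletion effect and may differ from those of WT.

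Among the 35 tested XLOC identifiers 7 were higher and 4 lower, beside 17.6% and 7.00% of all tested genes. XLOC_001152 rose from 0.08, 0.07 and 0.29 FPKM to 24.18, 15.01 and 17.84 FPKM (log2 change 4.10, SE 0.22, adjusted p = 3.36e-10). XLOC_002817 rose from 77.02 ± 6.609 to 184.9 ± 12.54 FPKM (SD, n = 3). XLOC_006214 fell from 2587 ± 427.7 to 1090 ± 98.23 FPKM and XLOC_009772 from 51.35 ± 8.949 to 14.27 ± 1.46 FPKM, with adjusted p values of 0.00147 and 1.75e-07.

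Spread within the groups was compared as well. The median SD of log2(FPKM + 1) over tested genes was 0.126 in WT and 0.122 in Δhap5. Of 6082 genes with a mean of 10 FPKM or more in WT, 39 spanned at least 4-fold between replicates, and of 6620 such genes in Δhap5 57 did.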

How the data were processed

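The authors deposited 1 table of FPKM values, per the file headers, with 18 columns, all of which were used (0 unmapped). The aligner, quantifier, genome build and strand handling are each not given in the sources used here. Per the labels' protocols, poly(A) RNA was converted to tags with NlaIII and MmeI. Columns were matched by strain, medium and replicate number, and bran-cellulose columns by elimination, as they carry another abbreviation than the sample titles. Of 9277 identifiers 0 matched the reference table of strain HP7-1 (9964 genes), so no gene names and no lists by role were used. Low values were searched for steps of whole reads. The best common ratio, within 0.02 log2 units, held 2.68% to 11.0% of low genes per library, so depth was not recovered.

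The log2 values computed from the deposited FPKM, as log2(FPKM + 1), went into 1 limma model (version 3.58.1, R 4.3.3, with trend) of the 6 group means over 18 libraries, with Benjamini-Hochberg adjustment over all 8681 tested genes and a minimum change of 1 in log2 units. On the log2(FPKM + 1) scale changes of low genes are understated. Means are given ± SD over 3 libraries.

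Genes were open to naming if called, at a mean of 10 FPKM or above on one side or the other, with groups that did not overlap and no 0 beside 10 FPKM within a group (1128 higher, 511 lower). At most 2 that rose and 2 that fell were taken from each of 8 lists: difference in FPKM, test statistic, difference from Δhap3, opposite call, same call or little change on bran-cellulose, switches from or to 0, and XLOC identifiers. The 3 longest runs per direction were named as well. Members, lists and tests were chosen with earlier results of these data known. Alternatives were another pseudocount, other filters, 2 scalings, a replicate block, fits of the compared groups alone, no minimum change and leaving out each library. Leaving out genes with a 0 beside 10 FPKM or more in a group, and rescaling the neighbour and medium shares, were added after the data were seen.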

Additional observations from a re-analysis of the deposited data

Results flagged for a closer look

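The effect of Δhap5 differed between bran-cellulose and glucose, by the interaction test in limma (adjusted p under 0.05, at least 1 in log2 units), for 18 of the 26 named genes. Values are the log2(FPKM + 1) change on bran-cellulose minus that on glucose, and where a group is listed at 0 their size depends on the added constant. The change was higher on bran-cellulose for PDE_06955 (12.39), PDE_09586 (8.57), PDE_02380 (7.72), PDE_09141 (6.92), PDE_00869 (6.54), PDE_00046 (6.48), PDE_03634 (4.66), XLOC_006214 (1.43), XLOC_001152 (1.25) and XLOC_009772 (1.14). It was lower for PDE_01818 (-8.82), PDE_03439 (-8.68), PDE_08014 (-7.16), PDE_00476 (-6.67), PDE_02096 (-6.67), PDE_08926 (-5.50), PDE_03824 (-3.87) and PDE_02650 (-1.64). PDE_02380 and PDE_00046 were listed at 0 in both strains on bran-cellulose, as was PDE_00476, so their values above are the glucose change with its sign turned, set by the added constant, and are not folds. Several of these genes were chosen for a difference between the media, so their number is no measure of how common such differences are.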

How the results depend on the processing

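All 26 named genes kept their direction and their call on glucose under every alternative that gave a value, 363 values in all. Their choice among called genes with groups apart favoured this, so it is no measure of how stable other calls are. PDE_01818, which was at 0 in 1 Δhap3 library, had none once genes with a 0 beside 10 FPKM or more in the same group were left out. Of 178 values for counts and library measures 161 passed a wide limit for likeness to the reported one. Under it 1216 higher genes on glucose with median-of-ratios scaling still passed beside 1530, and 786 lower genes beside 608. Without a minimum change, higher and lower counts were 3643 and 1549 for Δhap5 on glucose, 3008 and 2614 on bran-cellulose, 1823 and 3092 for the interaction, 1184 and 532 against Δhap3 and 3304 and 1866 for Δhap3. Quantile normalization gave 958 higher genes on glucose. With the compared groups only, the Δhap5 against Δhap3 test gave 90 and 45. With a replicate block the glucose counts were 1527 and 610. The block rests on a shared number only: deviations from the group means correlated at -0.050, 0.097 and -0.029 for the same-numbered Δhap5 and WT libraries, and not every library correlated best with its own number. The difference in genes detected was 264.7 at 0.1 FPKM and 501.7 at 10 FPKM, and that in the share of the most abundant genes was -2.545 percentage points for 10 genes and -7.004 for 200.

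Leaving out 1 library gave 1460 to 1597 higher and 570 to 620 lower genes on glucose, 1383 to 1449 and 1119 to 1156 on bran-cellulose, and 929 to 997 positive and 1619 to 1753 negative interactions. It gave 209 to 354 higher and 78 to 113 lower genes against Δhap3, and 1259 to 1395 and 707 to 830 for Δhap3. The difference in genes detected ran from 375.3 to 419.8 and that in the share of the 50 most abundant genes from -5.823 to -5.262. Depth is unknown, so counting error of low genes is not known either.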
